A study of Homo sapiens with 6 samples.

Results

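The 9 genes described here encode enzymes that make retinoic acid from retinol or break it down: ALDH1A1, ALDH1A2, ALDH1A3, RDH10, RDH11, DHRS3, DHRS9, CYP26A1 and CYP26B1. They were picked by name from the pathway, and each was found once among the 58884 gene identifiers of the deposited table. Expression was measured by RNA sequencing of total RNA from 3 established human thyroid carcinoma lines. BHT-101 and 8505C derive from anaplastic carcinoma and FTC-133 from follicular carcinoma. BHT-101 and FTC-133 cells were transfected with siCRABP2, a small interfering RNA aimed at CRABP2, or with siControl, its control. 8505C cells received a vector that expresses CRABP2, or that vector without it (empty vector). Each of these 6 groups is 1 library, so a difference within a line has no replicate check and no test. The labels do not say whether 8505C cells were a pool or a clone, nor how long after transfection any cells were harvested.

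Retinol is oxidized to retinaldehyde in a reversible step. RDH10 is a main retinol dehydrogenase of this step, RDH11 and DHRS9 can also act on retinoids, and DHRS3 reduces retinaldehyde back to retinol. The retinaldehyde dehydrogenases ALDH1A1, ALDH1A2 and ALDH1A3 then oxidize retinaldehyde irreversibly to retinoic acid, and the cytochromes CYP26A1 and CYP26B1 hydroxylate retinoic acid for disposal. Retinoic acid acts through nuclear receptors on DNA, and CRABP2 carries it to them. DHRS3 and CYP26A1 are known targets of this signal, so the pathway has feedback on its own input and output.

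Short stretches upstream of 4 of these genes are shown because the 3 retinaldehyde dehydrogenases of the pathway each hold a CCAAT at a similar place, and because CYP26A1, alone of the genes with windows, holds a repeat that retinoic acid receptors are known to bind. They were read from RefSeq promoter windows on GRCh38.p14, which run from 250 bases before to 50 after a transcript start. 8 of the 9 genes had windows there, 15 windows among 35116 in all. Capitals mark CCAAT in the 3 ALDH1A stretches. In the CYP26A1 stretch they mark a DR5, a direct repeat of the nuclear receptor half-site with 5 bases between the copies, which here reads on the opposite strand. Each stretch is 30 bases, written 5′ to 3′ on the strand of its gene.
ALDH1A1 (chr9:72953110-72953139, minus strand): gagtttgttcatCCAATcgtatccgagtat
ALDH1A2 (chr15:58065756-58065785, minus strand): cggccctcacgtCCAATaagaagagcccca
ALDH1A3 (chr15:100879748-100879777, plus strand): ccggtcccgcagCCAATtaggcggccccct
CYP26A1 (chr10:93073797-93073826, plus strand): taaagaTGAACTTTGGGTGAACTaattgtc
The CCAAT began 74 bases upstream of the start in ALDH1A1, 62 in ALDH1A2 and 71 in ALDH1A3, and the DR5 began 90 bases upstream of the start in CYP26A1. Except for that of ALDH1A1, the stretches overlap annotated exons. Over both strands, CCAAT was in 7 of the 15 windows and in 34.6% of all windows. These windows belonged to 7 of the 8 genes, with CYP26A1, CYP26B1, DHRS9 and RDH11 beside the 3 ALDH1A genes. Holding a CCAAT was thus not particular to the ALDH1A genes. DR5 was in 1 of the 15 windows and in 0.0883% of all windows. The same half-sites spaced by 1 base (DR1, 0.131% of all windows) or by 2 bases (DR2, 0.0399%) were in 0 of the 15. TATAAA was in 5 of the 15 windows and in 11.5% of all. A match describes the letters and is not evidence of a bound factor.

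Library totals, recovered from the deposited values, ran from 22084110 to 27958622 reads, and 11136 to 12279 genes reached 1 FPKM (fragments scaled for exon length and library depth) in a library. CRABP2 followed the labels: it was 27.3 FPKM with siControl and 11.4 with siCRABP2 in BHT-101, 8.94 and 0.170 in FTC-133, and in 8505C 0.607 in the control and 38.0 with the vector that expresses it. Markers of thyroid follicular cells were sparse. Of 10, only DIO1 and DIO2 reached 1 FPKM in BHT-101, where TG, TSHR and NKX2-1 were at 0 in both libraries, only PAX8 and NKX2-1 did in FTC-133, and only NKX2-1 did in 8505C. Epithelial markers reached 1 FPKM for 6 of 6 genes in BHT-101, 4 in FTC-133 and 3 in 8505C. Mesenchymal markers did for 5 and 4 of 6 genes in BHT-101 (siControl, siCRABP2), 6 in FTC-133 and 4 in 8505C. The mesenchymal markers summed to 244 and 215 FPKM in BHT-101, beside 786 and 819 for the epithelial ones. In FTC-133 the sums were 1186 and 1104 FPKM, beside 98.6 and 110. Of 6 leukocyte markers only CD14 reached 1 FPKM, in BHT-101 and 8505C, and none of the 3 red cell markers did in any library. Of 4 muscle and pericyte markers DES alone reached it, in BHT-101 (6.13 and 5.36 FPKM). Of 4 endothelial markers CDH5 did in 8505C (1.99 and 2.46 FPKM) and PECAM1 did in BHT-101 siCRABP2 (1.07 FPKM).

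Of the 9 genes, 3 reached 1 FPKM in every library, and the rest did so in some libraries or in none. RDH10, RDH11 and DHRS3 were above 1 FPKM in all 6 libraries, ALDH1A3 was in 4 and ALDH1A1 in 3, and ALDH1A2, DHRS9, CYP26A1 and CYP26B1 stayed under 1 FPKM in all 6. By FPKM, which is per exon length and so can be compared between genes, DHRS3 was the most abundant of the 9 in BHT-101 siControl and in both 8505C libraries. ALDH1A1 was the most abundant in BHT-101 siCRABP2, and RDH11 in both FTC-133 libraries. The summed level of the 9 genes was 115.7 and 135.5 FPKM in BHT-101 (siControl, siCRABP2), 43.2 and 45.3 FPKM in FTC-133 and 72.9 and 59.5 FPKM in 8505C (empty vector, CRABP2 vector). In these bulk libraries, fewer cells expressing a gene and less RNA per cell cannot be told apart.

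**Figure D1:**
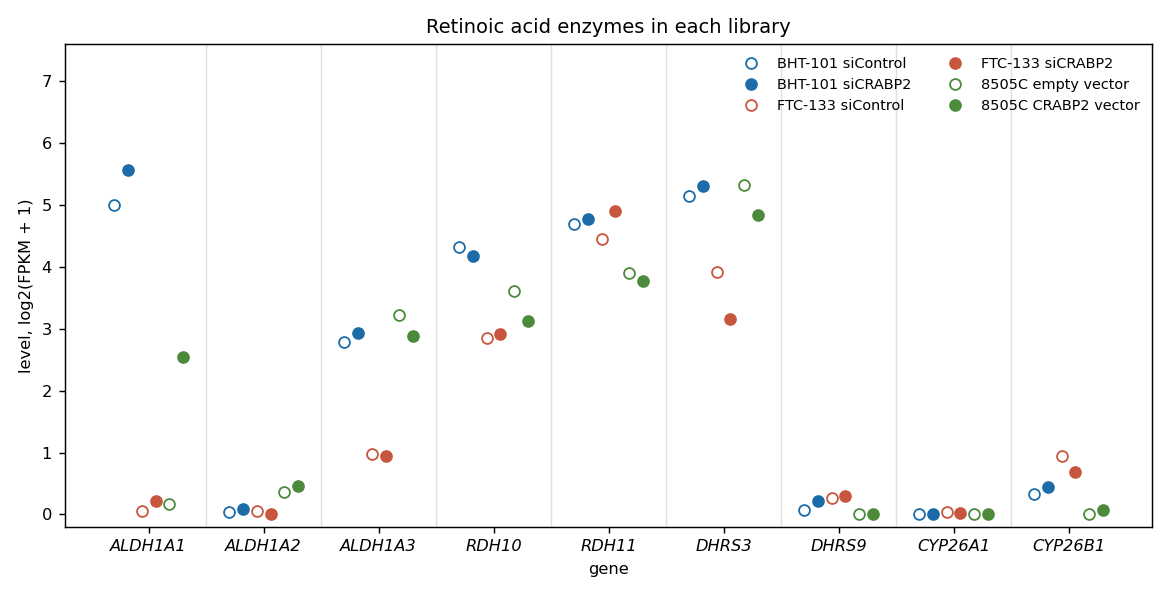
Level of each of the 9 genes on the log2(FPKM + 1) axis in each of the 6 libraries, with open points for siControl or empty vector and filled points for siCRABP2 or CRABP2 vector, 1 point per library and no error bars. ALDH1A1 has the widest span: both BHT-101 points are above 5 and the FTC-133 and 8505C empty vector points are close to 0.

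ALDH1A1 (ENSG00000165092, GRCh38 chromosome 9, 72900662 to 73080442, minus strand), a cytosolic retinaldehyde dehydrogenase also used as a stem cell marker, varied most. Its level was 31.1 FPKM in BHT-101 siControl and 46.6 in BHT-101 siCRABP2, 0.0426 and 0.168 in FTC-133 siControl and siCRABP2, and in 8505C 0.123 in the control and 4.82 with CRABP2. Both BHT-101 libraries were above the other 4, and the 8505C empty vector library lay between the FTC-133 libraries. In BHT-101 the gene was at percentile 87.8 and 91.9 of the genes measured in its 2 libraries.

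With the CRABP2 vector in 8505C, reads of ALDH1A1 went from 8 to 302, and the read ratio at equal depth was 39.1-fold, with a 95% exact interval of 19.6 to 91.3. This and all later intervals express read-counting error alone and hold for the libraries, not for the conditions. On the log2(FPKM + 1) scale, used for all differences below because it damps low genes, the difference was 2.37, the 11th highest of 11731 genes measured. With a pseudocount of 0.1 in place of 1 it was 4.46. In BHT-101 the siCRABP2 library was higher than siControl by 0.57 (1.50-fold in reads, interval 1.42 to 1.58), rank 232 of 12055 genes. In FTC-133 the gene was under 1 FPKM in both libraries, with 3 reads and 13 reads (3.96-fold, interval 1.09 to 21.6). The treated library was thus the higher one in all 3 lines, with CRABP2 lowered in 2 of them and raised in the third.

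Nearby genes were measured beside ALDH1A1 in 8505C. Within 1 Mb, 5 protein-coding genes were measured, with differences from 0.02 to 1.22 and a median of 0.12. ANXA1, an annexin 71315 bp away, was 186 FPKM in the control and 259 with CRABP2, and GDA, a guanine deaminase 643469 bp away, was 22.1 and 52.9 FPKM. Distances were taken from the annotated interval of ALDH1A1, which extends beyond the transcript start used for its printed stretch. The median difference of 320 genes of chromosome 9 at 5 FPKM or more was 0.06. The epithelial markers summed to 205 FPKM with the empty vector and 343 with CRABP2, with 3 of 6 above 1 FPKM in each, and the mesenchymal markers to 225 and 298 FPKM, with 4 of 6 above 1 FPKM in each and COL1A2 at 0 in both. Their part in the ALDH1A1 difference was not tested.

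ALDH1A3 (ENSG00000184254, chromosome 15, 100877714 to 100916626, plus strand) had another order of lines. It was 5.91 and 6.64 FPKM in BHT-101 (siControl, siCRABP2), 0.959 and 0.931 in FTC-133, and 8.37 and 6.35 in 8505C (empty vector, CRABP2 vector). The FTC-133 libraries were the lowest, and the BHT-101 and 8505C ranges overlapped. Within lines the difference was 0.15 in BHT-101 (1.12-fold in reads, interval 1.02 to 1.24) and -0.35 in 8505C (0.759-fold, interval 0.690 to 0.835). In FTC-133, where the gene was just under 1 FPKM with 127 and 135 reads, the ratio was 0.971-fold with an interval of 0.756 to 1.25.

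ALDH1A2 (ENSG00000128918, chromosome 15, 57953424 to 58497866, minus strand), the main retinaldehyde dehydrogenase of the early embryo, did not exceed 0.368 FPKM in any library. Its reads were 5 and 11 in BHT-101, 9 and 2 in FTC-133, and 54 and 66 in 8505C. 8505C was the highest line for it. LIPC, a hepatic lipase on the other strand of the same interval, was at 2.64 and 3.25 FPKM in BHT-101 and 0 in 8505C. No source used here gives the counting strand, and overlap of exons was not checked. Whether reads of one gene were counted for the other was thus not assessed.

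The makeup of retinaldehyde dehydrogenase transcripts differed between the lines. The 3 ALDH1A genes summed to 37.0 and 53.3 FPKM in BHT-101 (siControl, siCRABP2), 1.05 and 1.11 in FTC-133, and 8.78 and 11.5 in 8505C (empty vector, CRABP2 vector). ALDH1A1 gave 84.0% and 87.4% of this sum in BHT-101, and ALDH1A3 gave 91.7% and 84.0% in FTC-133. In 8505C, ALDH1A3 gave 95.3% in the control and 55.1% with CRABP2, and ALDH1A1 gave 1.40% and 41.8%. Among all 19 aldehyde dehydrogenase genes, ALDH1A1 ranked 1 by FPKM in both BHT-101 libraries, 16 and 14 in FTC-133, and 13 and 7 in 8505C. The highest of the family was ALDH18A1, a proline synthesis enzyme, in FTC-133 (25.8 and 37.8 FPKM) and ALDH9A1 in 8505C (17.8 and 20.2 FPKM).

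**Figure D2:**
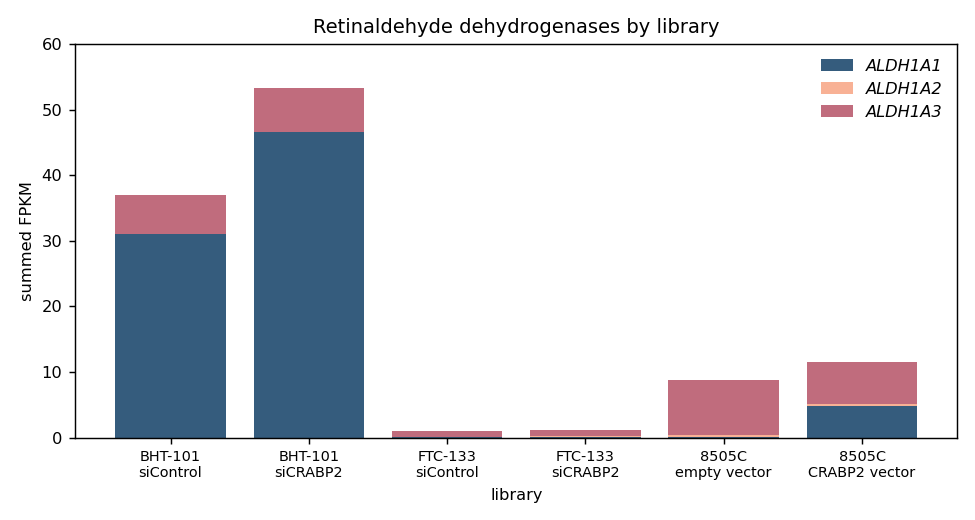
Stacked bars of the FPKM of ALDH1A1, ALDH1A2 and ALDH1A3 in each of the 6 libraries, 1 library per bar and no error bars. ALDH1A1 fills most of both BHT-101 bars, ALDH1A3 fills most of both FTC-133 bars and nearly all of the 8505C empty vector bar, and ALDH1A1 takes 41.8% of the 8505C CRABP2 vector bar.

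RDH10 (ENSG00000121039, chromosome 8, 73294612 to 73325281, plus strand) was 19.0 and 17.0 FPKM in BHT-101 (siControl, siCRABP2), 6.20 and 6.51 in FTC-133, and 11.3 and 7.71 in 8505C (empty vector, CRABP2 vector). The 3 lines did not overlap, with BHT-101 highest and FTC-133 lowest. The CRABP2 vector library of 8505C was lower than its control by 0.49, so the difference was -0.49 (0.685-fold in reads, interval 0.629 to 0.745). The differences were -0.16 in BHT-101 and 0.06 in FTC-133, where the interval of the read ratio, 0.954 to 1.15, spans 1. The ribosomal protein gene RPL7, on the other strand of the same interval, was at 641 to 1957 FPKM.

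RDH11 (ENSG00000072042, chromosome 14, 67676801 to 67695814, minus strand), which reduces or oxidizes retinoids and other lipid aldehydes, was 25.0 and 26.2 FPKM in BHT-101, 20.7 and 28.9 in FTC-133, and 14.0 and 12.6 in 8505C, each with the control library first. Both 8505C libraries were below the other 4, and BHT-101 lay within the FTC-133 range. The largest of its 3 within-line differences was 0.46 in FTC-133, with 2830 reads in siControl and 4327 in siCRABP2 (1.40-fold at equal depth, interval 1.33 to 1.46). The others were 0.07 in BHT-101 and -0.14 in 8505C.

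DHRS3 (ENSG00000162496, chromosome 1, 12567910 to 12617731, minus strand), the retinaldehyde reductase, was 34.4 and 38.5 FPKM in BHT-101 (siControl, siCRABP2), 14.0 and 7.88 in FTC-133, and 38.8 and 27.6 in 8505C (empty vector, CRABP2 vector). FTC-133 was the lowest line, and the BHT-101 range lay within that of 8505C. In FTC-133 the siCRABP2 library was below siControl, with a difference of -0.76 (0.561-fold in reads, interval 0.512 to 0.615), rank 633 from the lowest of 12832 genes. In BHT-101 the difference was 0.16 (1.12-fold, interval 1.07 to 1.18). In 8505C it was -0.48 (0.710-fold, interval 0.672 to 0.750), rank 1018 from the lowest of 11731. The ratio of DHRS3 to RDH10 in FPKM, reductase over oxidase, was 1.80 and 2.26 in BHT-101, 2.26 and 1.21 in FTC-133, and 3.45 and 3.58 in 8505C.

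DHRS9 (ENSG00000073737, chromosome 2, 169064789 to 169096167, plus strand), an epithelial retinol dehydrogenase, had 5 and 14 reads in BHT-101 (0.0477 and 0.167 FPKM), 19 and 24 in FTC-133 (0.204 and 0.235 FPKM) and 0 in both 8505C libraries. With 3 reads taken as the limit that a count of 0 allows, this is up to 0.0350 FPKM for the empty vector and 0.0362 for the CRABP2 vector, and the 2-sided 95% exact Poisson interval reaches 0.0431 and 0.0445 FPKM. In BHT-101 the read ratio was 3.50-fold with an interval of 1.19 to 12.4, and in FTC-133 it was 1.15-fold with an interval of 0.606 to 2.23.

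Both retinoic acid hydroxylases stayed under 1 FPKM. CYP26A1 (ENSG00000095596, chromosome 10, 93073475 to 93077890, plus strand) had 3 reads in all, 2 in FTC-133 siControl and 1 in FTC-133 siCRABP2, and none in the other 4 libraries, where 3 reads would be 0.0361 to 0.0457 FPKM. CYP26B1 (ENSG00000003137, chromosome 2, 72129238 to 72148038, minus strand) was 0.257 and 0.366 FPKM in BHT-101, 0.916 and 0.616 in FTC-133 and 0.00873 and 0.0451 in 8505C, control library first. Its lines did not overlap, and FTC-133, the line with the lowest ALDH1A sum, was the highest for it. In FTC-133 its reads were 114 with siControl and 84 with siCRABP2, a ratio of 0.673-fold with an interval of 0.501 to 0.900. In BHT-101 the interval, 0.889 to 2.30, spans 1, and in 8505C the counts were 1 and 5.

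Differences within a line were counted over the members measured there, which were 5, 3 and 5 of the 9 in BHT-101, FTC-133 and 8505C. With 3 to 5 members measured per line, such counts are too small to describe the pathway. A gene was measured in a line if it reached 1 FPKM in 1 or both libraries, and was called if the difference was at least 1, a 2-fold change on this scale. In BHT-101, 5 members were measured and 0 called, against 0.589% of 12055 genes called higher and 0.539% called lower. In FTC-133, 3 were measured and 0 called, against 2.36% of 12832 genes called higher and 2.35% called lower. In 8505C, 5 were measured and 1, ALDH1A1, was called higher, against 1.85% of 11731 genes called higher and 1.86% called lower. The median difference of the measured members was 0.15 in BHT-101, 0.06 in FTC-133 and -0.35 in 8505C, beside 0.01, -0.04 and 0.02 over all measured genes. In 8505C the other 4 measured members (ALDH1A3, RDH10, RDH11 and DHRS3) were below 0, and in BHT-101 4 of 5 were above 0.

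**Figure D3:**
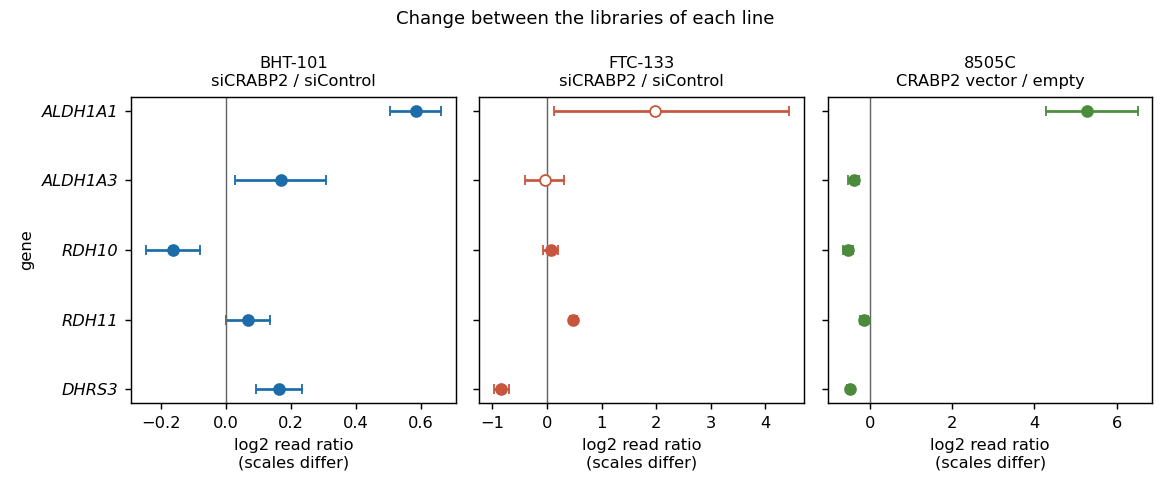
Log2 ratio of reads at equal depth between the 2 libraries of each line for the 5 genes that reached 1 FPKM in some library, with bars for 95% exact counting intervals and open points for genes not measured in that line; the horizontal scales differ between panels. ALDH1A1 is right of 0 in all 3 panels, and DHRS3 is right of 0 in BHT-101 and left of 0 in FTC-133 and 8505C.

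Over lines, the knockdown was tested with limma on the 4 siRNA libraries, with the line as a block. Of 12953 genes tested, 0 were called at an adjusted p of 0.05 (0% of genes), with 314 higher and 225 lower at an unadjusted p under 0.05. All 5 members tested missed the threshold. limma gave ALDH1A1 a difference of 0.37 (SE 0.19, adjusted p 0.869), higher in both lines, but on 3 and 13 reads in FTC-133. It gave RDH11 0.26 (SE 0.17, adjusted p 0.869), higher in both lines, and DHRS3 -0.30 (SE 0.24, adjusted p 0.869), lower in 1 of 2. For ALDH1A3 the limma difference was 0.06 (adjusted p 0.956) and for RDH10 -0.05 (adjusted p 0.966). ALDH1A1 and ALDH1A3, under 1 FPKM in both FTC-133 libraries, passed the filter of this fit only through BHT-101. A second limma fit set the lower CRABP2 arm (siCRABP2 and empty vector) against the higher arm (siControl and CRABP2 vector) over all 6 libraries. Of 11628 genes tested it also called 0 (0%), with 193 higher and 179 lower at an unadjusted p under 0.05, and the 5 members had adjusted p of 0.999. ALDH1A1 there had a difference of -0.55 (SE 0.50), with the lower arm above in BHT-101 and FTC-133 (under 1 FPKM in FTC-133) and below in 8505C. The first fit leaves 1 residual degree of freedom and the second 2, and CRABP2 itself, with a difference of -2.14 in the knockdown fit, had an adjusted p of 0.792. A miss therefore does not show that the genes stayed the same.

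Levels were then compared between lines. The limma contrasts of lines used all 6 libraries with the CRABP2 arm as a covariate and tested 13736 genes, but the 2 libraries of a line differ in treatment and are not replicates. Against FTC-133, BHT-101 was higher for 4 of the 5 members tested, where 17.7% of all genes were called higher and 28.3% lower (46.0% in all). The difference was 5.15 for ALDH1A1 (SE 0.67, adjusted p 0.00173) and 1.90 for ALDH1A3 (SE 0.18, adjusted p 0.000504). For DHRS3 it was 1.69 (SE 0.30, adjusted p 0.00577) and for RDH10 it was 1.37 (SE 0.20, adjusted p 0.00287), while RDH11 at 0.06 missed the threshold (SE 0.17, adjusted p 0.801). Of the 5 members tested, the 4 called were thus lower in FTC-133 than in BHT-101. ALDH1A1 and ALDH1A3 were under 1 FPKM in both FTC-133 libraries and passed the filter only through the other lines. Their direction against FTC-133 was thus set by the filter, and no conclusion is drawn from the shared direction. DHRS9, CYP26B1 and CYP26A1, too low to be tested, were higher in both FTC-133 libraries than in either BHT-101 library, CYP26A1 on 3 reads in all.

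Against 8505C, BHT-101 was higher for 3 of the 5 members, where limma called 31.2% of genes higher and 29.2% lower (60.3% in all). ALDH1A1 was higher by 3.93 (SE 0.67, adjusted p 0.00335), RDH11 by 0.90 (SE 0.17, adjusted p 0.00527) and RDH10 by 0.88 (SE 0.20, adjusted p 0.0110). DHRS3 (0.15, adjusted p 0.701) and ALDH1A3 (-0.19, adjusted p 0.390) missed it. Leaving out the BHT-101 siControl library ended the limma calls of RDH10 (adjusted p 0.144) and RDH11 (adjusted p 0.0834), and leaving out the 8505C CRABP2 vector library ended that of RDH10 (adjusted p 0.0542). Without the 8505C empty vector library the ALDH1A1 difference was 2.56.

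FTC-133 differed from 8505C for 3 of the 5 members, where limma called 34.3% of genes higher and 23.7% lower (58.0% in all). ALDH1A3 was lower in FTC-133, with a difference of -2.09 (SE 0.18, adjusted p 0.000311), as was DHRS3 at -1.55 (SE 0.30, adjusted p 0.00603), which was -1.01 without the FTC-133 siCRABP2 library. ALDH1A3 was under 1 FPKM in both FTC-133 libraries and passed the filter only through the other lines. Its direction here was thus set by the filter, and no conclusion is drawn from its call. RDH11 was higher in FTC-133 by 0.84 (SE 0.17, adjusted p 0.00727). RDH10 missed the threshold at -0.49 (adjusted p 0.0806), but passed with median-ratio scaling (-0.63, adjusted p 0.0373), with quantile normalization (-0.63, adjusted p 0.0418) and without the 8505C CRABP2 vector library (-0.76, adjusted p 0.0269). Without the 8505C empty vector library it was smaller and missed the threshold (-0.22, adjusted p 0.429). ALDH1A1 missed it at -1.21 (adjusted p 0.167). Without the 8505C empty vector library it was -2.58 (adjusted p 0.000902), without FTC-133 siCRABP2 -1.74 (adjusted p 0.0312), and without the 8505C CRABP2 vector library 0.16 (adjusted p 0.631), so this contrast rests on single libraries.

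Other genes of the pathway were counted in lists. Beside the counts of each list stand the shares of all measured genes called by size. These were 0.589% higher and 0.539% lower in BHT-101, 2.36% and 2.35% in FTC-133, and 1.85% and 1.86% in 8505C. Of 30 further enzymes of retinol, retinaldehyde and retinoic acid, 12 were measured in BHT-101, 11 in FTC-133 and 10 in 8505C. None was called in BHT-101 or FTC-133, and in 8505C 1 was called higher and 0 lower. That gene, SDR16C5, a retinol dehydrogenase, was 0.654 FPKM in the control and 2.38 with CRABP2 (49 and 172 reads), a difference of 1.03. It was 49.9 and 64.2 FPKM in BHT-101 and listed at 0 in both FTC-133 libraries. The median difference of the measured enzymes was 0.07 in BHT-101, 0.18 in FTC-133 and 0.31 in 8505C, beside the medians over all measured genes of 0.01, -0.04 and 0.02. Of 16 other aldehyde dehydrogenases, 12, 12 and 9 were measured in BHT-101, FTC-133 and 8505C, and none was called.

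Of 16 genes of retinoid uptake, carriage and storage, 6, 5 and 4 were measured in BHT-101, FTC-133 and 8505C. Their median differences, CRABP2 included, were 0.08, -0.03 and 0.17, beside 0.01, -0.04 and 0.02 over all measured genes. Besides CRABP2, which was called in every line, the rule named RBP4, the serum retinol carrier. RBP4 in 8505C was 1.14 FPKM in the control and 0.0311 with CRABP2 (38 reads and 1 read), a difference of -1.05. Of 9 retinoid receptors and corepressors 8 were measured in each line and none was called, with medians of -0.02 in BHT-101, -0.20 in FTC-133 and -0.18 in 8505C, beside 0.01, -0.04 and 0.02 over all measured genes.

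Of 20 genes known to be induced by retinoic acid, a list that holds CRABP2 itself and the members DHRS3, CYP26A1 and CYP26B1, 12 were measured in BHT-101, with 0 called higher and 1, CRABP2, lower. In that line 11 were above 0 and the median was 0.12, beside 0.01 over all measured genes, of which 0.589% were called higher and 0.539% lower. In FTC-133 11 were measured, 0 were called higher and 2 lower, all 11 were below 0 and the median was -0.62, beside -0.04 over all measured genes, of which 2.36% were called higher and 2.35% lower. The called pair was CRABP2 and RARRES2, a chemoattractant precursor, at 34.3 FPKM with siControl and 13.1 with siCRABP2 (1626 and 681 reads), a difference of -1.32. In 8505C 8 were measured, 1 was called higher, CRABP2, and 6 were above 0, with a median of 0.19, beside 0.02 over all measured genes, of which 1.85% were called higher and 1.86% lower. DHRS3 was thus on the same side of 0 as the list's median in BHT-101 and FTC-133 and on the other side in 8505C. That median includes DHRS3, so the 2 are not independent. The direction of CRABP2, also counted here, was set by the treatment in each line.

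The genes with the most similar profiles over the 6 libraries were sought for the 3 members whose level spanned at least 2 on the log2(FPKM + 1) scale. Likeness was the root mean square distance between profiles centred on their means, over 8619 protein-coding genes that reached 5 FPKM in some library. Among the nearest to ALDH1A1 were SDR16C5 at a distance of 0.51 (Pearson r 0.982) and AQP3, an aquaporin, at 0.62 (r 0.983). AQP3 was 25.5 and 32.0 FPKM in BHT-101, 0.567 and 0.543 in FTC-133 and 1.52 and 3.22 in 8505C, control library first. Its BHT-101 and 8505C pairs ordered as those of ALDH1A1 did, and its FTC-133 pair did not. The gene was picked for likeness over these same libraries, so a shared order is no separate result. Nearest to ALDH1A3 were KIFC3 at 0.11, MSH6 at 0.13 and RPH3AL at 0.15, and nearest to DHRS3 were MANSC1 at 0.15, CENPBD1 at 0.16 and LPGAT1 at 0.17. The correlations are descriptions over 6 libraries that fall into 3 lines, which the genes share.

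**Figure D4:**
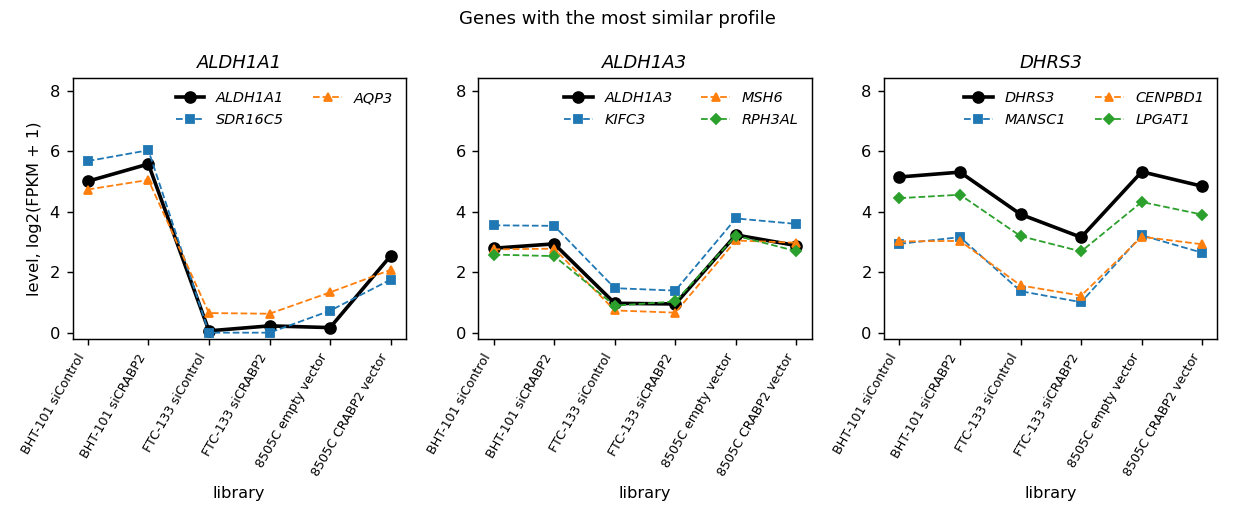
Level on the log2(FPKM + 1) axis in each of the 6 libraries for ALDH1A1, ALDH1A3 and DHRS3 (black) and genes among the 3 nearest to each in centred profile (coloured dashes; 2 are drawn for ALDH1A1); lines only join the points of a gene. The 2 genes drawn beside ALDH1A1 are high in BHT-101, low in FTC-133 and higher in the 8505C CRABP2 vector library than in its control.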

How the data were processed

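RNA was extracted with Trizol, per the labels' protocols, and the authors deposited 1 table of FPKM values for 58884 gene identifiers and 6 libraries. Per the submitters' processing notes, reads went through FastQC, Trimmomatic 0.38 and featureCounts 2.0.0, and the build was GRCh38. No aligner, annotation release or strand setting is given in the sources used here. Names and positions came from GENCODE release 29, which may not be the authors' release.

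FPKM times exon length fell on whole steps, which gave the library totals. With release 29 lengths, 75.2% of 33700 genes above 0 had whole reads in all 6 libraries (tolerance 0.001 reads). For the 9 members the nearest length giving whole reads was used (tolerance 0.02 reads). Intervals of read ratios are 95% exact (Clopper-Pearson).

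Differences were taken on log2(FPKM + 1), which understates changes of low genes. limma 3.58.1 (R 4.3.3) was fitted with a variance trend and Benjamini-Hochberg adjustment over all genes tested, with 1 FPKM in 2 or more of the 4 siRNA libraries or of all 6 (line contrasts), or in 3 or more of 6 (arm fit). The line named in the labels pairs the libraries. No label says that cultures were separate, so p-values measure the spread between these libraries. The method was tested on simulated data for the contrast of BHT-101 against FTC-133 only. The simulation drew the 2 libraries of a line as replicates, which the real ones are not. It did not cover the knockdown or arm fits. Direct repeats were searched on both strands with a degenerate half-site.

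Members and gene lists were chosen with earlier results of these data known. Named were the members, CRABP2, up to 4 genes called by size per list and line, and the 3 nearest profiles of members spanning at least 2, of which 1 is not reported here. ANXA1, GDA, LIPC, RPL7 and the highest aldehyde dehydrogenases were named after their values were seen. Alternatives were a pseudocount of 0.1, no filter, median-ratio scaling, quantile normalization, limma without a trend, no block, and leaving out a library or line.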

Additional observations from a re-analysis of the deposited data

Results flagged for a closer look

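DHRS3 lay on opposite sides of 0 in the 2 knockdown lines. The siCRABP2 library was above siControl by 0.16 on the log2(FPKM + 1) scale in BHT-101, with 3376 and 3024 reads in siControl and siCRABP2, and the difference was -0.76 in FTC-133, with 1225 and 753 reads. Exact counting intervals of the log2 read ratio were 0.09 to 0.24 for BHT-101 and -0.97 to -0.70 for FTC-133. With 1 library per group, the difference between the lines was not tested.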

How the results depend on the processing

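No within-line difference or line contrast of a member that was called changed sign under any alternative run. With a pseudocount of 0.1 the genes called by size were 174 higher and 128 lower in BHT-101 (71 and 65 with 1), 561 and 717 in FTC-133 (303 and 302), and 478 and 417 in 8505C (217 and 218). Leaving out a library gave 2603 to 6846 genes called between BHT-101 and FTC-133 (6324 with all), with 2603 without BHT-101 siControl and 2797 without BHT-101 siCRABP2. It gave 4583 to 8995 between BHT-101 and 8505C (8288 with all), with 4583 and 4594 without those same libraries. The fit of lower against higher CRABP2 arm called 0 to 10 genes when a line was left out, 10 without FTC-133 and 1 without BHT-101. The cause was not tested, but each such fit has fewer libraries.

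Between BHT-101 and FTC-133, limma called 2436 genes higher and 3888 lower, but 2993 and 2893 with median-ratio scaling and 2862 and 2978 with quantile normalization, as the median over all genes moved from -0.16 to -0.01 and -0.03. Between FTC-133 and 8505C it called 4710 higher and 3255 lower, and 3788 and 4241 with quantile normalization, with medians of 0.13 and -0.05. Without the line as a replicate block, limma called 0 genes in the knockdown fit (22 at an unadjusted p under 0.05, beside 539 with the block). It called 0 in the arm fit (4, beside 372 with the block). Both fits also called 0 with the block, so the calls cannot show what the pairing by line does. Depth limits ALDH1A2, DHRS9 and the CYP26 genes, whose differences rest on few reads.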

Other observations

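Aldehyde-reducing and carrier genes outside the 9 enzymes were looked at after their values were seen. AKR1B10, an aldo-keto reductase that acts on retinaldehyde, was 78.0 FPKM in BHT-101 siControl and 111.4 in siCRABP2, 3.09 and 3.63 in FTC-133, and 0.0741 and 0.102 in 8505C (empty vector, CRABP2 vector). AKR1C3, of the same superfamily, was 102.9 and 143.0 FPKM in BHT-101, 4.04 and 6.29 in FTC-133, and 1.53 and 1.32 in 8505C. Both were highest in BHT-101, the line in which ALDH1A1 was highest. AKR1B1, also of this superfamily, was instead highest in FTC-133, at 299.7 and 302.0 FPKM. It was 115.2 and 139.6 FPKM in BHT-101 and 89.9 and 116.4 in 8505C. FABP5, which can carry retinoic acid to another nuclear receptor, was 169.5 and 225.1 FPKM in BHT-101, 47.6 and 65.6 in FTC-133, and 26.2 and 38.2 in 8505C. Its differences on the log2(FPKM + 1) scale were 0.41, 0.45 and 0.53, below the size call in each line.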
